A study of Mus musculus with 27 samples.

Results

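The genes most lowered after NSL1 knockdown in mouse embryonic stem (ES) cells are described here through 9 members: Arpin, Plgrkt, Pcbd1, Plekhb1, Siae, Cyp4f16, Zc4h2, Cd99l2 and Mtmr1. Out of 19938 named genes they were selected on the measured size of their lowering after NSL1 knockdown in a female line. For some it was their place among X-linked genes by that size. The lack of a response to MSL1 knockdown was also asked for, although some members had small MSL1 changes. Since the choice used them, the NSL1 and MSL1 values are given as descriptions with no test. Each of the 9 genes had 1 probeset, and all 9 passed the filter on low values, which was set on the mean over all arrays. The response to knockdown of MOF comes from other experiments with control arrays of their own, in 3 lines, and was tested gene by gene. It was known when the members were chosen. Neither the MOF p-value of a member nor the number of members that passed is therefore an independent test.

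MOF (gene symbol Kat8) is the enzyme that acetylates histone H4 at lysine 16, a mark of open, transcribed chromatin. It works in alternative complexes. In the MSL complex the scaffold is MSL1; in the NSL complex a scaffold of its own joins MOF to subunits that bind the promoters of widely expressed genes. The fly subunit is named NSL1 and its mouse counterpart has the symbol Kansl1, while an unrelated kinetochore gene has the symbol Nsl1.

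The data were log2 expression values from 27 Affymetrix mouse gene arrays. The knockdown groups in PGK12.1, a female line whose dam was 129 and whose sire was a (129 X PGK)F1, were NSL1 (3 arrays, experiments C to E), MOF together with MSL1 (2 arrays, D and E), MSL1 (3 arrays, A to C) and MOF (3 arrays, experiments 1 to 3). Controls were 5 arrays (A to E) for the NSL1, MSL1 and double knockdowns and 3 arrays (1 to 3) for MOF. MOF was also knocked down in 2 arrays against 2 controls in WD44, a male BL6 line, and in 2 against 2 in E14, a male line labelled as a BL6 by Cast hybrid. Cells in every group, controls included, were grown with LIF, taken off their feeder fibroblasts and given 100 pmol of small interfering RNA (siRNA) for 48 h, which in the controls was a non-targeting siRNA. In experiments 1 and 2 a second round of 400 pmol followed for 24 h in MOF and control cells alike, and 50 pmol of Msl1 siRNA was added in the double knockdown. Arrays of a group are, per the labels, separate RNAi treatments of a line, so the spread is that between treatments of the same cells. The siRNA lowers a transcript in a cell population without removing the gene, and RNA remained in every knockdown. Fewer cells of a type and less RNA per cell cannot be told apart in such bulk samples.

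The median of an array lay anywhere between 6.22 and 7.96, with steps from one set of experiments to the next, so a level is compared only with the control of its own experiment. The MOF siRNA left 38.7% to 48% of the Kat8 signal in PGK12.1, 51.8% to 60.3% in WD44 and 59% to 66.4% in E14, and Kat8 after NSL1 siRNA differed from control by 0.07 (SE 0.06, adjusted p = 0.369). Msl1 fell by 0.97 (SE 0.07, adjusted p = 4.59e-06) after MSL1 siRNA. The target of the arrays labelled NSL1 was not settled by these values. One Kansl1 probeset fell by 0.24 (SE 0.05, adjusted p = 0.000874), another rose by 0.50 (SE 0.13, adjusted p = 0.00648), and Nsl1 stood at 0.16 (SE 0.06, adjusted p = 0.0502). The name NSL1 is used below as the label gives it. The 10 pluripotency markers lay at a median percentile of 95.4 to 97.2 on every array. The 11 feeder fibroblast markers had mean log2 values of 5.88 to 7.78 (median percentile 46.2 to 55.6). Array values have no true 0, so none could be at it.

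The promoters of 5 of the genes are shown: the pair with the largest NSL1 change (Plgrkt and Arpin) and the 3 X-linked members (Zc4h2, Cd99l2 and Mtmr1). Each runs 5′ to 3′ over 300 bases, 250 before and 50 after the annotated start, from RefSeq on GRCm38.p6. Capitals mark matches on either strand to the letters TATAAA of the TATA box, the CCAAT box, the GC box written GGGCGG, the core CCGGAA of ETS factors and the E-box CACGTG, and neighbouring matches may overlap. The windows are chr19:29361822-29362121 on the minus strand for Plgrkt, chr7:79935215-79935514 on the minus strand for Arpin, chrX:95658460-95658759 on the minus strand for Zc4h2, chrX:71492800-71493099 on the minus strand for Cd99l2 and chrX:71364510-71364809 on the plus strand for Mtmr1.
Plgrkt: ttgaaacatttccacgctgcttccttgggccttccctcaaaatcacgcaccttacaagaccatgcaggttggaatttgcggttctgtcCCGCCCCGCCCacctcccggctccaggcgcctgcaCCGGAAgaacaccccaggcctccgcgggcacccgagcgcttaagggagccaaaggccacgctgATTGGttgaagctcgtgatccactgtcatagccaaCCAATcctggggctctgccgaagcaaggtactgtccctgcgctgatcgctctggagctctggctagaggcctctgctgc
Arpin: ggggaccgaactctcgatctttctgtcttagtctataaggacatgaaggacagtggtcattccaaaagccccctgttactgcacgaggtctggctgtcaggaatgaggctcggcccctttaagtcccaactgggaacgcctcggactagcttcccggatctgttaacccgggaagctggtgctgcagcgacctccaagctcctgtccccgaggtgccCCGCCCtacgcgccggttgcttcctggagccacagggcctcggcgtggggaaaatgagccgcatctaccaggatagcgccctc
Zc4h2: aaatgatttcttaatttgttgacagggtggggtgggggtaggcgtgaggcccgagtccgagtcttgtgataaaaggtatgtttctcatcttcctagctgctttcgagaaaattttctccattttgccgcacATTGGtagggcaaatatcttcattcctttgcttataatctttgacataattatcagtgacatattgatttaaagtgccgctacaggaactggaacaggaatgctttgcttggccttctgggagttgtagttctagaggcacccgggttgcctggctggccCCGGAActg
Cd99l2: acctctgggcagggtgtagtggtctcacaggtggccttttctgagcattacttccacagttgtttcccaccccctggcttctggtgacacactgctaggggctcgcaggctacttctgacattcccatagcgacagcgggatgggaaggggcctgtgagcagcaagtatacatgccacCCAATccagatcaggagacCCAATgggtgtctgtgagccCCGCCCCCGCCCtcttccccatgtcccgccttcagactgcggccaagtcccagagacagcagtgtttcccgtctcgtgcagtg
Mtmr1: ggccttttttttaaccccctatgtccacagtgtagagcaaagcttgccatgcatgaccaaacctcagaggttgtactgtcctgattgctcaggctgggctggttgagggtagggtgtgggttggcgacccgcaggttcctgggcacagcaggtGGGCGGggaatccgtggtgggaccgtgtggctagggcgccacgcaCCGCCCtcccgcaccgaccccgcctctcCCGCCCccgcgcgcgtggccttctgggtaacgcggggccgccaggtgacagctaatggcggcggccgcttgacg

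RefSeq promoter entries were found for 8 of the 9 genes, 9 entries in all since Plekhb1 has 2. Siae had none in the table used. None of the 8 genes had the E-box CACGTG, which 7.15% of all 32851 promoters of this length hold. The GC box GGGCGG, the element bound by Sp1-type factors, was in 6 of the 8, against 60.5% of the promoters of genes tested on the arrays and 35.7% of all promoters. CCAAT was in 5 of the 8 (36.9% of tested genes, 37.4% of all). The TATA-box letters TATAAA were in 1, Pcbd1 (7.21% of tested genes, 13.6% of all). The ETS core CCGGAA was in Plgrkt and Zc4h2 (24.5% of tested genes, 14.9% of all). The counts for members are of genes, while the percentages are of promoter entries. Counted by entry, the GC box was in 6 of 9 and CCAAT in 6 of 9. No motif searched was in all 8 genes, and a match or its absence says nothing about binding.

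The ratio of observed to expected CpG dinucleotides in the members' windows lay below the median of promoters of genes tested. Observed over expected CpG ran from 0.088 in Cyp4f16 to 0.71 in Mtmr1, with a median of 0.44 over the 9 entries against 0.72 over 14027 promoters of tested genes. It was over 0.6, the usual cut for a CpG island, in 3 of 9 entries (33.3%) and in 64.7% of the tested genes' promoters. Those over it were Plgrkt, Arpin and Mtmr1, whose sequences are all shown above, so the promoters shown do not stand for the group in this ratio. The nearest to the tested genes' median was Mtmr1, at the percentile 48.1 of that distribution. The plain number of CpG in Mtmr1's window, 23, was above the tested genes' median of 19. With all 32851 RefSeq promoters as the comparison the median was 0.38, which is below the members' median. Median GC content was 55.3% in the members and 60.3% in tested genes.

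**Figure D1:**
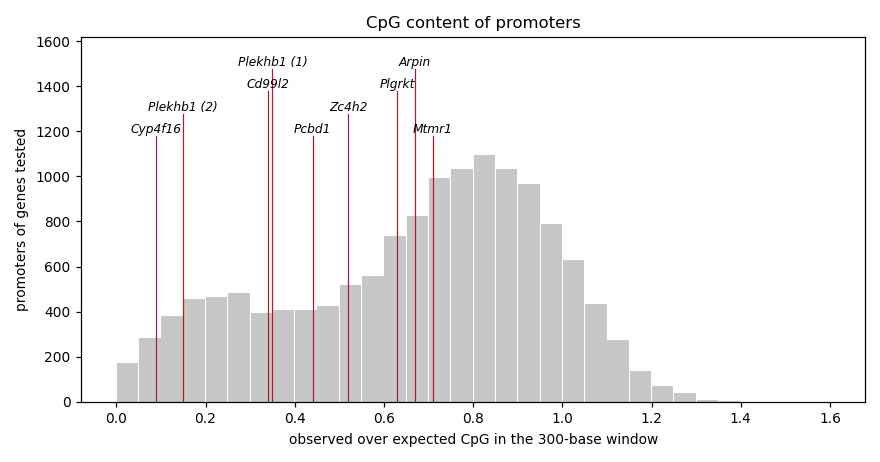
CpG content of the members' promoters (red lines, 1 per RefSeq entry) over the distribution for promoters of genes tested on the arrays (grey bars, promoters per bin of the observed over expected CpG ratio). The 9 lines fall between 0.088 and 0.71, below the tested genes' median of 0.72.

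After NSL1 siRNA the 9 genes had estimated log2 changes between -1.49 and -0.85, with a median of -1.31, against -0.01 over all 16283 probesets tested. This left an estimated 35.7% (Plgrkt) to 55.4% (Mtmr1) of the control RNA. Of the probesets tested, 21.4% were called lower and 18.4% higher after NSL1 siRNA by limma at a Benjamini-Hochberg adjusted p under 0.05, a background that is given only to place the choice. The choice was not a plain top 9. Among named probesets called with one sign in every experiment, Plgrkt, Arpin, Zc4h2, Pcbd1, Siae, Plekhb1 and Cyp4f16 ranked 2, 3, 4, 5, 7, 11 and 12 from the lowest. Cd99l2 ranked 30 and Mtmr1 87, and these were the ranks 4 and 8 among X-linked probesets. Just inside the autosomal edge was Cyp4f16 at -1.23, and just outside were Cpn1 at -1.18, Morn4 at -1.18 and Ttc26 at -1.16. Genes lower than some members but not among them included Tbc1d7 at -1.50, Ano9 at -1.33, Casp8 at -1.26 and the X-linked Atg4a at -1.26. On the X chromosome Was at -0.98, Rpgr at -0.96 and Ctps2 at -0.85 lay between Cd99l2 and Mtmr1 or beside it.

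**Figure D2:**
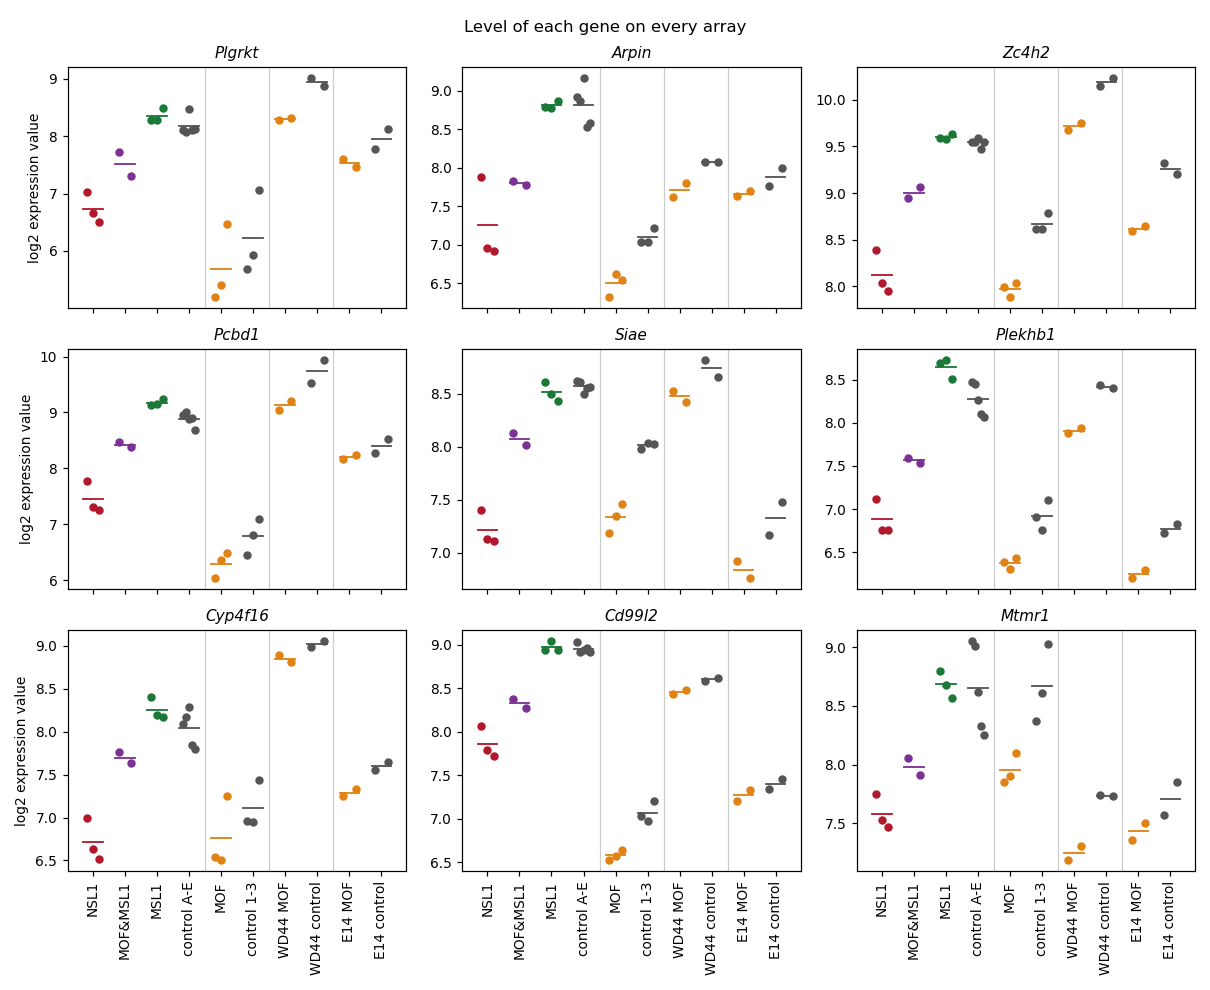
Log2 expression value of each gene on all 27 arrays, with 1 point per array and a bar at the group mean; grey lines separate sets of arrays with their own controls. In every panel each NSL1 array lies below the control of its own experiment, values on which the members were chosen. Each double-knockdown array also lies below the control of its own experiment. No share over all probesets is given for either.

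Arpin encodes an inhibitor of the Arp2/3 complex, the nucleator of branched actin filaments. It stood at 7.88, 6.96 and 6.92 in NSL1 arrays C, D and E, against 9.16, 8.53 and 8.58 in the controls of the same experiments. The groups did not overlap, although array C was high in both, and the estimate was -1.46. After MOF siRNA in PGK12.1 the values were 6.33, 6.62 and 6.55 (experiments 1 to 3), against 7.04, 7.04 and 7.22 in controls, and Arpin fell by 0.60 (SE 0.08, adjusted p = 0.000124). It stood at 7.62 and 7.80 in MOF arrays of WD44, against 8.07 and 8.08, a fall of 0.36 (SE 0.10, adjusted p = 0.0277). In E14 the change did not pass the test: 7.63 and 7.70 against 7.77 and 8.00, or -0.22 (SE 0.10, adjusted p = 0.186). The MSL1 estimate was -0.22 (95% interval -0.38 to -0.05).

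Plekhb1, a pleckstrin homology domain protein of membranes first described in photoreceptors, had the most even response to MOF. In NSL1 arrays C, D and E it stood at 7.12, 6.76 and 6.76, against 8.27, 8.10 and 8.06 in controls, an estimate of -1.26. In MOF arrays of PGK12.1 it stood at 6.39, 6.30 and 6.43, against 6.91, 6.76 and 7.10. All of these knockdown arrays lay below all of their controls, and the change after MOF in PGK12.1 was -0.55 (SE 0.05, adjusted p = 1.04e-05). It was 7.88 and 7.94 against 8.44 and 8.40 in WD44, a change of -0.51 (SE 0.06, adjusted p = 0.000605), and 6.20 and 6.29 against 6.72 and 6.83 in E14, a change of -0.53 (SE 0.06, adjusted p = 0.000537). After MSL1 siRNA it was higher on every array, at 8.69, 8.73 and 8.51 against 8.47, 8.45 and 8.27, with an estimate of 0.22 (95% interval 0.12 to 0.33).

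Plgrkt encodes a membrane receptor that binds plasminogen through a C-terminal lysine and aids its activation at the cell surface. Among the members it had the lowest NSL1 estimate, -1.49. It stood at 7.02, 6.66 and 6.50 in NSL1 arrays C, D and E, against 8.48, 8.11 and 8.13 in controls. The differences were -1.46 in C, -1.46 in D and -1.63 in E. After MOF in PGK12.1 Plgrkt stood at 5.20, 5.40 and 6.46, against 5.69, 5.92 and 7.06 in controls. In experiments 1 and 2 both knockdown and control lay under 6, the value that the filter required of the mean over all arrays. The groups overlapped because experiment 3 was high in both, yet each MOF array was below its own control, and the change was -0.54 (SE 0.09, adjusted p = 0.000581). The change was -0.65 (SE 0.11, adjusted p = 0.00295) in WD44 (8.28 and 8.32 against 9.01 and 8.88). It was -0.41 (SE 0.11, adjusted p = 0.0303) in E14, where the gap was wider in experiment 2 (7.46 against 8.12) than in experiment 1 (7.61 against 7.77).

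Cd99l2 encodes a CD99-like surface glycoprotein that takes part in the passage of leukocytes through vessel walls. It is X-linked. In NSL1 arrays C, D and E it stood at 8.07, 7.79 and 7.72, against 8.94, 8.96 and 8.92 in controls that hardly varied, an estimate of -1.07. In MOF arrays of PGK12.1 it stood at 6.53, 6.57 and 6.64, against 7.03, 6.97 and 7.21, with no overlap and a change of -0.49 (SE 0.06, adjusted p = 0.00011). The double knockdown gave 8.38 and 8.27 in D and E, an estimate of -0.55 that was close to the MOF value. In the male lines neither change passed the test. They were -0.14 (SE 0.08, adjusted p = 0.23) in WD44, with 8.44 and 8.48 against 8.59 and 8.62, and -0.13 (SE 0.08, adjusted p = 0.344) in E14, with 7.21 and 7.33 against 7.34 and 7.46.

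Pcbd1 encodes pterin-4a-carbinolamine dehydratase, which recycles tetrahydrobiopterin, the cofactor of aromatic amino acid hydroxylases. NSL1 arrays C, D and E had 7.78, 7.31 and 7.25, against 8.88, 8.90 and 8.69 in controls, an estimate of -1.38. MOF arrays of PGK12.1 had 6.04, 6.36 and 6.48, against 6.46, 6.81 and 7.10. Each was below its own control while the groups overlapped, and the change was -0.50 (SE 0.08, adjusted p = 0.000393). In WD44 it was -0.61 (SE 0.09, adjusted p = 0.00192), from arrays at 9.04 and 9.21 against 9.53 and 9.94. In E14 it did not pass, at -0.20 (SE 0.09, adjusted p = 0.213), with 8.16 and 8.24 against 8.28 and 8.52. The estimate after MSL1 siRNA was 0.18 (95% interval 0.03 to 0.34).

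Siae encodes sialic acid acetylesterase, which strips acetyl groups from sialic acids. It stood at 7.40, 7.13 and 7.11 in NSL1 arrays C, D and E, against 8.50, 8.56 and 8.57 in controls, an estimate of -1.31. MOF arrays of PGK12.1 had 7.19, 7.35 and 7.46, against 7.98, 8.04 and 8.03, a change of -0.68 (SE 0.08, adjusted p = 5.68e-05) with a wide gap between the groups. It fell in E14, by 0.48 (SE 0.10, adjusted p = 0.0106), with 6.92 and 6.76 against 7.17 and 7.48. In WD44, with 8.53 and 8.42 against 8.82 and 8.66, the change was -0.27 (SE 0.10, adjusted p = 0.0953) and passed the test only after median centring (adjusted p = 0.0443) or quantile normalization (adjusted p = 0.0474) of the arrays.

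Cyp4f16 belongs to the cytochrome P450 4F family, whose members oxidize fatty acids and eicosanoids. NSL1 arrays C, D and E had 6.99, 6.63 and 6.52, against 8.29, 7.84 and 7.80 in controls, and the differences of -1.30, -1.21 and -1.28 were alike. The estimate was -1.23. Its MOF response was the smallest in PGK12.1 of the 9, -0.35 (SE 0.07, adjusted p = 0.00245), from 6.54, 6.51 and 7.25 against 6.96, 6.95 and 7.44. The change was -0.31 (SE 0.09, adjusted p = 0.038) in E14, with 7.25 and 7.33 against 7.55 and 7.65. This call held under 3 of 11 alternatives and was lost, for example, with quantile normalization (adjusted p = 0.0809) and with no filter (0.0675). It did not pass in WD44, at -0.17 (SE 0.09, adjusted p = 0.213), with 8.89 and 8.81 against 8.98 and 9.05. The double knockdown, at 7.77 and 7.63 against 7.84 and 7.80, gave -0.12, the estimate nearest to 0 among the 9.

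Mtmr1 encodes a myotubularin-related phosphatase that removes a phosphate from phosphoinositides, and it lies beside its paralog Mtm1 on the X chromosome. It had the NSL1 estimate nearest to 0 and the largest MOF response in PGK12.1 among the members. NSL1 arrays C, D and E had 7.75, 7.53 and 7.47, against 8.62, 8.33 and 8.25 in controls, an estimate of -0.85. MOF arrays of PGK12.1 had 7.85, 7.90 and 8.10, against 8.37, 8.61 and 9.03, a change of -0.72 (SE 0.07, adjusted p = 1.56e-05). The groups did not overlap, although control 3 was high. In WD44 the change was -0.48 (SE 0.09, adjusted p = 0.00507), with 7.19 and 7.31 against 7.74 and 7.73. In E14 it was -0.28 (SE 0.09, adjusted p = 0.0647), with 7.36 and 7.50 against 7.57 and 7.85, and it passed with array weights (adjusted p = 0.0352) or with the filter at a mean of 7 (adjusted p = 0.0471). Its MSL1 estimate was -0.19 (95% interval -0.34 to -0.04).

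Zc4h2 encodes a zinc finger protein of the developing nervous system that works with the ubiquitin ligase RNF220, and mutations in the human gene cause an X-linked disorder of muscle and nerve. NSL1 arrays C, D and E had 8.39, 8.04 and 7.95, against 9.59, 9.48 and 9.55 in controls, an estimate of -1.40. MOF arrays of PGK12.1 had 7.99, 7.89 and 8.04, against 8.61, 8.61 and 8.79. The gap was wider than the spread in either group, and the change was -0.70 (SE 0.07, adjusted p = 1.03e-05). It fell in both male lines too, with -0.47 (SE 0.08, adjusted p = 0.00345) in WD44 (9.68 and 9.75 against 10.15 and 10.23) and -0.64 (SE 0.08, adjusted p = 0.00059) in E14 (8.59 and 8.65 against 9.32 and 9.20). After MSL1 siRNA the arrays A to C had 9.59, 9.58 and 9.63, against 9.55, 9.55 and 9.59, and the estimate was 0.00 (95% interval -0.14 to 0.13).

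**Figure D3:**
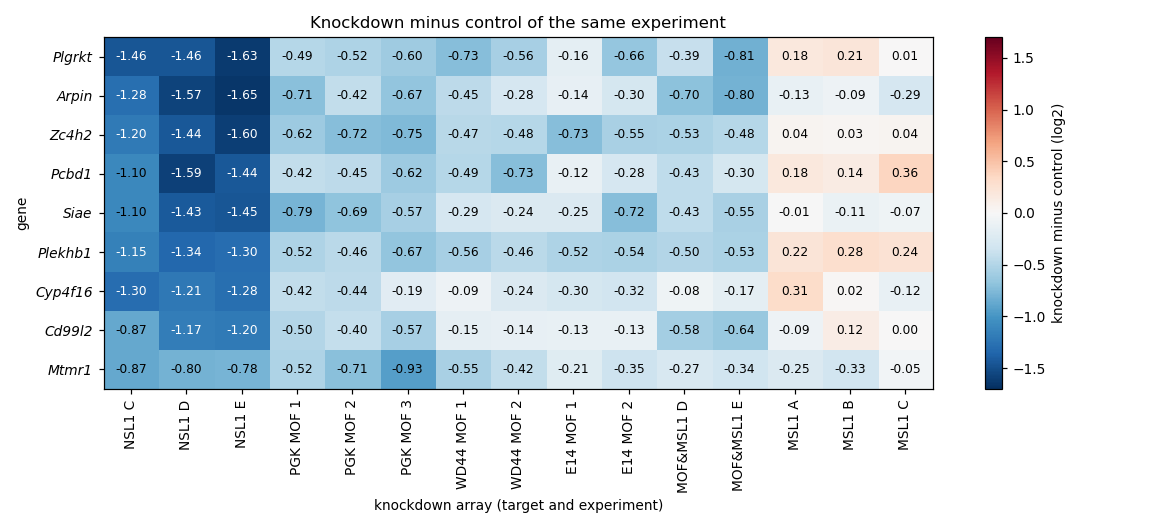
Knockdown minus control of the same experiment on the log2 scale for the 9 genes (rows) on the 15 knockdown arrays (columns), blue where the knockdown array is lower and red where it is higher. The NSL1 columns hold the lowest values, between -1.65 and -0.78, and the MSL1 columns lie between -0.33 and 0.36.

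After MOF knockdown, a response known when the members were chosen, all 9 genes fell in PGK12.1. In WD44 6 of 9 fell, in E14 5 of 9 did, and none rose in any line. Among all probesets tested, 13.9% were called lower and 9.49% higher after MOF in PGK12.1, 7.98% lower and 4.38% higher in WD44, and 4.73% lower and 3.6% higher in E14. The median change of the 9 in PGK12.1 was -0.55, that in WD44 -0.47 and that in E14 -0.31, against medians of 0.00, -0.02 and 0.01 over all probesets. Plgrkt, Zc4h2 and Plekhb1 passed in all 3 lines. Arpin, Pcbd1 and Mtmr1 passed in PGK12.1 and WD44, and Siae and Cyp4f16 in PGK12.1 and E14. Cd99l2 passed in PGK12.1 alone. Without a term for the experiment 7 of 9 passed in PGK12.1, where Arpin (adjusted p = 0.0527) and Cyp4f16 (adjusted p = 0.0815) did not, and 1 and 2 of 9 in WD44 and E14. The WD44 and E14 calls also rest on a spread shared with the PGK12.1 arrays, since 0 of 9 passed when each line's 4 arrays were fitted alone. In PGK12.1 all 9 passed whichever array was left out. For WD44 and E14, leaving out a knockdown array or its control gave the same values, so each such pair counts as 2 of the alternatives below. In WD44 2 of 9 passed without an array of experiment 1 and 5 without one of experiment 2, and in E14 3 and 2. Over 11 alternatives, left-out arrays included, the WD44 call held in 9 for Plekhb1 and Pcbd1, 8 for Zc4h2, 7 for Plgrkt and Mtmr1 and 5 for Arpin. The E14 call held in 9 for Plekhb1, 8 for Zc4h2 and Siae, 6 for Plgrkt and 3 for Cyp4f16.

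For none of the 9 genes did the difference in the MOF response between lines pass the test. Of all probesets, 0.903% were called lower in PGK12.1 than in WD44, 1.31% lower in PGK12.1 than in E14, and 0.848% lower in WD44 than in E14. The estimates for PGK12.1 minus E14 were below 0 for all 9 genes, from -0.44 for Mtmr1 (95% interval -0.68 to -0.20, adjusted p = 0.0551) to -0.02 for Plekhb1 (95% interval -0.20 to 0.16, adjusted p = 0.933). Their median was -0.20, against -0.01 over all probesets tested, and no share below 0 over all probesets is given. The members were chosen in PGK12.1 with the MOF response known, which can favour such a sign. For Cd99l2 the difference was -0.36 against E14 (95% interval -0.58 to -0.14, adjusted p = 0.0738) and -0.34 against WD44 (95% interval -0.56 to -0.13, adjusted p = 0.0936). Among the PGK12.1 minus WD44 differences that of Siae was the farthest below 0, at -0.42 (95% interval -0.70 to -0.14, adjusted p = 0.111). After quantile normalization of the arrays, 4 of 9 differed between PGK12.1 and E14, 1 between PGK12.1 and WD44 and 1 between WD44 and E14. The Kat8 signal left was also lowest in PGK12.1, where 2 of 3 experiments had a second round of siRNA, so line and depth of knockdown cannot be told apart. Feeder fibroblast markers stood 0.06 to 0.18 higher in MOF arrays of WD44 than in controls, and 3 of the 7 tested rose (Col1a1 by 0.38, Col3a1 by 0.30 and Col1a2 by 0.30). Trophectoderm markers stood 0.10 to 0.21 higher in the same arrays, and 2 of the 7 tested rose (Krt18 by 0.45 and Hand1 by 0.35). The collagen calls were lost without the experiment term (adjusted p of 0.417 to 0.562), as was that of Hand1 (0.446), and the part of these markers in the WD44 values was not tested. In MOF arrays of PGK12.1 the fibroblast markers stood at -0.01 to 0.11.

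**Figure D4:**
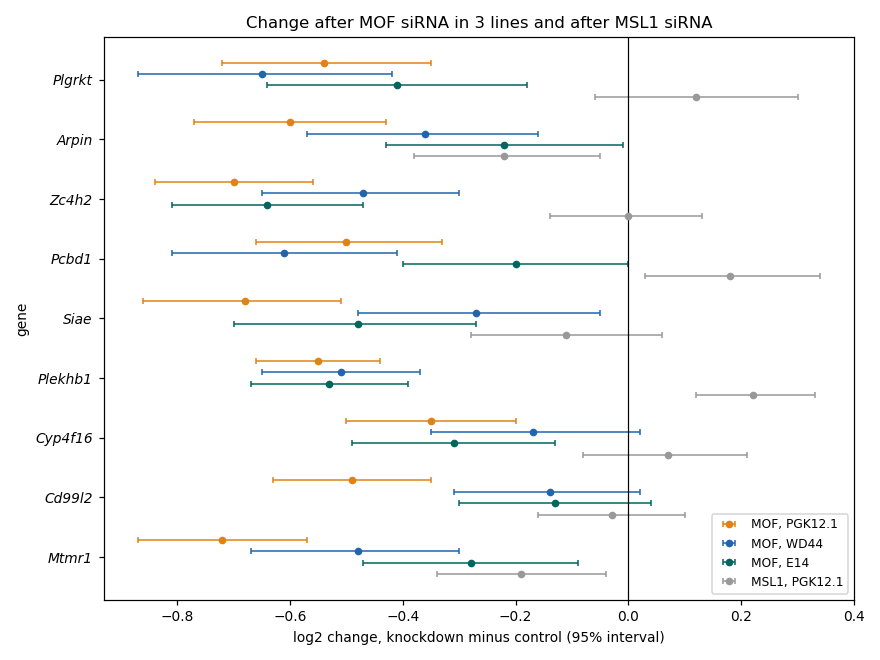
Estimated log2 change of each gene after MOF siRNA in PGK12.1, WD44 and E14 and after MSL1 siRNA in PGK12.1, with 95% intervals from the limma fit. All MOF points lie below 0, between -0.72 and -0.13, and the MSL1 points lie on both sides of 0.

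The fall below control was larger after NSL1 than after MOF siRNA in the same line for all 9 genes, which the choice of the members by their NSL1 change favours, and the experiments are different ones. The MOF change in PGK12.1, as a share of the NSL1 change on the log2 scale, ran from 28.5% in Cyp4f16 to 84.6% in Mtmr1, with a median of 43.8%. NSL1 minus MOF ran from -0.95 to -0.13. These values set the lowering of different transcripts side by side, and the protein left was not measured on the arrays. Within experiments D and E, NSL1, double knockdown and control can be read side by side. All 9 genes were lowest on the NSL1 array, on which they were chosen, in both experiments. On the double-knockdown array all 9 lay between the NSL1 array and the control, in both. The choice of the members favours such an order, and no share over all probesets is given beside it. Plgrkt had 6.66, 7.73 and 8.11 on the NSL1, double-knockdown and control arrays in D, and 6.50, 7.31 and 8.13 in E. Zc4h2 had 8.04, 8.94 and 9.48 in D, and 7.95, 9.07 and 9.55 in E. The median double-knockdown estimate was -0.45, from -0.68 in Arpin to -0.12 in Cyp4f16, and 52.8% to 56.3% of the Kat8 signal was left in these arrays. The Msl1 change in them was -0.46 (SE 0.08), smaller than the -0.97 (SE 0.07) after MSL1 siRNA alone. Comparisons on A to E share control arrays, so their changes are not independent of each other. The values read side by side here are descriptions with no test between knockdowns.

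After MSL1 siRNA the 9 genes had a median estimate of 0.00, from -0.22 in Arpin to 0.22 in Plekhb1, values that the choice of the members took into account. The estimates use all arrays of an experiment together and can differ slightly from the mean of the plain differences. For Mtmr1 the differences were -0.25, -0.33 and -0.05 in experiments A to C, and the last was on the array set that shared its control with NSL1.

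**Figure D5:**
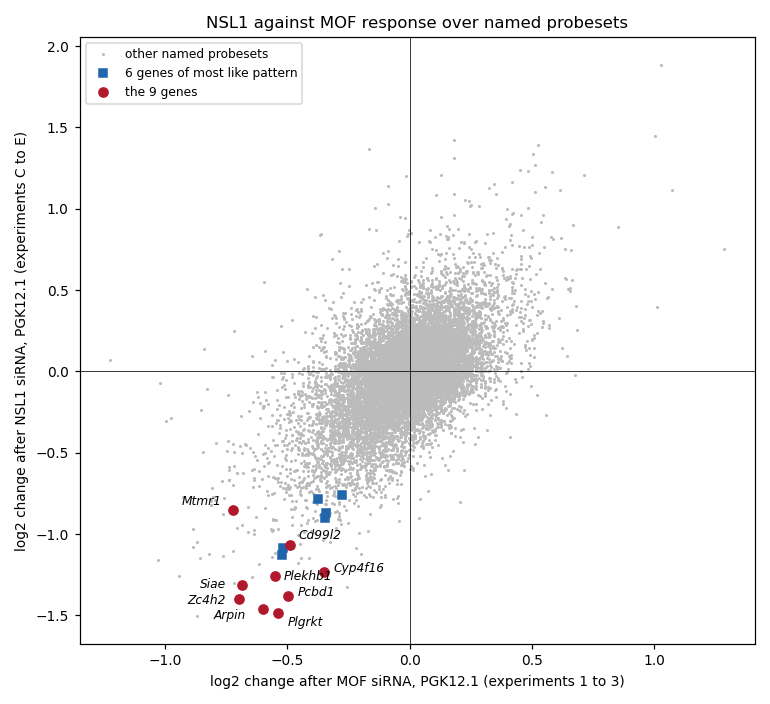
Estimated log2 change after NSL1 siRNA (vertical axis) and after MOF siRNA (horizontal axis) in PGK12.1 for the 9 genes (red), the 6 genes of most like pattern (blue squares) and other named probesets (grey). The 9 genes lie between -1.49 and -0.85 on the NSL1 axis and between -0.72 and -0.35 on the MOF axis; the first range is what they were chosen for.

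The 9 genes varied together across the 15 knockdown minus control differences, as genes chosen for one pattern must. Pearson's r of each gene with the mean of the other 8 was 0.91 to 0.96 for 8 genes and 0.77 for Mtmr1, over 15 differences that share control arrays. The 6 other genes whose differences followed the members' mean most closely were Gstm4 (r = 0.994), Pcca (0.982), Elmod3 (0.976), Cdk5 (0.975), Stradb (0.974) and Stxbp2 (0.972). Gstm4 is a glutathione transferase and Pcca a subunit of the mitochondrial propionyl-CoA carboxylase. Gstm4 had estimates of -1.08 after NSL1, -0.52 after MOF in PGK12.1 and 0.04 after MSL1, and Pcca had -1.13, -0.52 and -0.07.

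Among genes that act with the members, some fell and some rose after NSL1 siRNA, and each list is given by its counts beside those over all genes. Over all 13989 genes tested 3135 fell and 2630 rose after NSL1, and 2045 fell and 1377 rose after MOF in PGK12.1. Of 18 tested genes of the Arp2/3 complex and its regulators, 4 fell and 4 rose after NSL1, with a median of -0.02. Wasf1, a WAVE subunit that activates Arp2/3, rose by 0.62 (SE 0.06, adjusted p = 1.11e-06), while Gmfg, which debranches actin, fell by 0.61 (SE 0.06, adjusted p = 1.84e-06). Arpc1a, a subunit, fell by 0.39 and Wasl rose by 0.27. After MOF in PGK12.1 0 of the 18 fell and 2 rose, Arpc5l by 0.19 and Wasf2 by 0.18. Both of these calls were lost without an array of experiment 1 (adjusted p of 0.271 and 0.0923) or experiment 2 (0.108 and 0.17).

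In the plasminogen system, 2 of 6 tested genes rose after NSL1 and none fell at this threshold. They were Plat, the tissue plasminogen activator (0.49, SE 0.09, adjusted p = 0.00037), and Plaur, the urokinase receptor (0.44, SE 0.07, adjusted p = 0.000194). After MOF in PGK12.1 Anxa2, which binds plasminogen, rose by 0.39 and Plaur by 0.26, and Ctsb fell by 0.21. Plaur missed the threshold after MOF without an array of any one experiment (adjusted p of 0.0677 to 0.0865), and Ctsb without experiment 2 (0.0553) or 3 (0.0892). In tetrahydrobiopterin metabolism 2 of 7 fell after NSL1, the reductase Cbr1 by 0.51 (SE 0.05, adjusted p = 2.7e-06) and Gchfr, a regulator of GTP cyclohydrolase, by 0.29. Cbr1 also fell after MOF, by 0.44 in PGK12.1 (adjusted p = 7.36e-05) and by 0.34 in WD44 (adjusted p = 0.00737), where the call was lost without the experiment term (0.114).

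In sialic acid metabolism 3 of 12 fell and 2 rose after NSL1. Npl, the lyase that cleaves sialic acid, fell by 0.83 (SE 0.06, adjusted p = 9.85e-08), Nans, a synthase, by 0.39 and Neu1, a sialidase, by 0.18, whereas Nanp rose by 0.35. Neu1 missed the threshold without NSL1 array C (adjusted p = 0.0786) or D (0.0957). After MOF 1 of 12 fell in PGK12.1, the transporter Slc35a1 by 0.36, while in WD44 Npl fell by 0.51 (adjusted p = 0.00145) and Neu4, a sialidase, rose by 0.35 (adjusted p = 0.00994). Both WD44 calls were lost without the experiment term (adjusted p of 0.159 and 0.665) and on the WD44 arrays alone (0.219 each). Of the other myotubularins 4 of 12 fell after NSL1 and 0 rose, with a list median of -0.04. They were Mtmr14 by 0.49, Mtmr6 by 0.28, Mtmr9 by 0.22 and Sbf2 by 0.19, and 2 of them, Mtmr9 (-0.22) and Sbf2 (-0.18), also fell after MOF in PGK12.1, the Sbf2 call being lost without experiment 2 (adjusted p = 0.101) or 3 (0.12). Of 2 tested Cyp4f relatives Cyp4f13 fell, by 0.51 (SE 0.05, adjusted p = 3.82e-06) after NSL1, and neither passed after MOF in PGK12.1. Of 3 paralogs and partners of Plekhb1, Cd99l2 and Zc4h2, Plekhb2 fell by 0.17 after NSL1 (adjusted p = 0.0277), a call that reversed in sign without the experiment term (0.02, adjusted p = 0.941) and was lost without any one NSL1 array (adjusted p of 0.0515 to 0.116). Genes of the complexes themselves gave 2 lower and 3 higher of 9 for NSL and 1 lower and 2 higher of 4 for MSL after NSL1, and 1 lower and 4 higher of 9 and 2 lower and 0 higher of 4 after MOF in PGK12.1, Kat8 included.

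Lineage markers were followed in the same arrays. After NSL1 siRNA pluripotency markers stood at -0.05 to -0.01 per experiment on average, with 1 of 10 lower. Feeder fibroblast markers stood at -0.08 to 0.04 with 2 of 7 tested lower, trophectoderm markers at -0.06 to 0.01 with 2 of 7 lower and 1 higher, and primitive endoderm markers at 0.08 to 0.13 with 2 of 8 higher. Neural progenitor markers stood at 0.07 to 0.34, with 1 of 6 lower and 3 higher. Neurod1, a neuronal transcription factor, rose by 1.23 (SE 0.13, adjusted p = 2.67e-06), Tubb3 by 0.26 (adjusted p = 0.024) and Pax6 by 0.21 (adjusted p = 0.0449). Nes, the marker that was lower, fell by 0.31 (adjusted p = 0.00953), a call lost without NSL1 array C (0.12). The Tubb3 call was lost without the experiment term (adjusted p = 0.168) and on the comparison's own arrays (0.0565), and the Pax6 call under 5 of 7 alternatives, with adjusted p of 0.0725 to 0.184. After MOF in PGK12.1 the averages ran from -0.08 to -0.04 for pluripotency, 0.06 to 0.20 for trophectoderm and 0.04 to 0.18 for neural markers. The part of these markers in the members' values was not tested.

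The genes next to the members, which were looked up after the data had been seen, included some that fell and some that rose. Of 16 neighbouring protein-coding genes that are not members, 11 were tested. After NSL1 2 fell, 4 rose and 5 did not pass, with a median of 0.12. Over all 13989 genes tested 3135 fell and 2630 rose, with a median of -0.01, and whether neighbours differ from other genes was not tested. Ap3s2, a subunit of the AP-3 vesicle coat next to Arpin on the same strand, fell by 0.70 (adjusted p = 8.72e-07) after NSL1 and by 0.38 (adjusted p = 0.00105) after MOF in PGK12.1. Spa17, next to Siae, fell by 0.36 (adjusted p = 0.000929) after NSL1. Rln1 next to Plgrkt rose by 0.34 (adjusted p = 0.0107), Unc5b next to Pcbd1 by 0.33 (adjusted p = 6.13e-05), Fam168a next to Plekhb1 by 0.22 (adjusted p = 0.00258) and Hmgb3 next to Cd99l2 by 0.21 (adjusted p = 0.0143). The Rln1 call was lost without NSL1 array C (adjusted p = 0.162) and without the experiment term (0.469), and the Hmgb3 call without NSL1 array E (0.0819) or control E (0.139). Mtmr1 and Cd99l2 are themselves neighbours on the X chromosome, with their 3′ ends facing, and both are members. Mtm1, on the other side of Mtmr1, stood at 0.17 after NSL1 (adjusted p = 0.101), and passed with array weights (0.00205) or without NSL1 array C (0.0186).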

How the data were processed

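RNA of mouse ES cells was measured on 27 arrays. The authors deposited 1 log2 value per probeset and array for 35556 probesets, made with Affymetrix Expression Console and RMA per the submitters' processing notes; versions and genome build are not given in the sources used here. Medians differed between sets of arrays, which were thus not brought to one scale. Probesets were named through the platform annotation and RefSeq (GRCm38.p6): 21789 had 1 symbol, 1621 several and 12146 none, and 21698 of the 21789 matched RefSeq. A mean log2 value of 6 or more was required of a named probeset, which kept 16283. One fit over all arrays was made in limma 3.58.1 (R 4.3.3), with a term for each of 12 experiments and an effect per knockdown and line (9 residual degrees of freedom), and the threshold was an adjusted p (Benjamini-Hochberg) under 0.05. A log2 change is knockdown minus control.

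The pairing by experiment comes from the labels, which give knockdown and control arrays one experiment number or letter. Deviations from group means correlated within an experiment at -0.10 to 0.87. No 2 arrays were identical, and arrays of a group correlated at 0.981 to 0.996. The number of arrays limits the precision. The procedure was tested on simulated data. Alternatives were no experiment term, arrays of the comparison alone, no filter, a filter at 7, array weights, median centring, quantile normalization and leaving out each array.

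The members and gene lists were chosen with earlier results of these data known. Besides the members and the targeted genes, the text names up to 4 called genes with the smallest p from a list (1 probeset per gene, the highest mean), the 6 genes of most like pattern, and genes just outside the members. Neighbouring genes and genes ranked above some members were added after the data had been seen.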

Additional observations from a re-analysis of the deposited data

Results flagged for a closer look

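The Plgrkt level in control arrays A to E had a sample far from the others. Control C stood at 8.48 and the other 4 at 8.07 to 8.13, so the gap was 0.862 of the whole range. Array medians differed between these controls, 6.76 to 6.77 in A to C and 6.39 to 6.42 in D and E, and as a percentile on its array Plgrkt lay at 70.5 in C and at 66.8, 66.3, 68.5 and 68.8 in A, B, D and E. The NSL1 array of experiment C was also the highest of its group, at 7.02. Of the 9 genes checked over these 5 controls, this was the only one past the limit, and chance alone passes about 1 in 20 such groups.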

How the results depend on the processing

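Each of 16 summary values was recomputed under 7 alternatives, and 75 of the 112 values held. Without a replicate block for the experiment, the calls became fewer: 7, 1 and 2 members were lower after MOF in PGK12.1, WD44 and E14, the probesets called were 1250, 99 and 109 (against 3816, 2013 and 1357), and 16, 11 and 5 probesets differed for PGK12.1 minus WD44, PGK12.1 minus E14 and WD44 minus E14 (against 360, 407 and 226). The median of the members was then -0.627 for the double knockdown and 0.0575 for MSL1, and Plekhb2 after NSL1 turned to 0.0238. With the arrays of a comparison's own experiments, 0 members and 0 probesets were called in WD44 and in E14 and 1516 probesets in PGK12.1; 29, 14 and 0 differed between lines, and the MSL1 median was 0.0367. With no filter 3 members and 857 probesets were called in E14, and 190, 168 and 87 differed. With array weights 9722 probesets were called after NSL1 (against 6480; this count was added after seeing the data), 178 differed between PGK12.1 and WD44, and the MSL1 median was 0.0253. With quantile normalization 1, 4 and 1 members differed between lines, with 658 probesets for PGK12.1 minus WD44 and 641 for PGK12.1 minus E14, and the MSL1 median was 0.0263. With median centring 2 members differed for PGK12.1 minus E14 and 377 probesets for WD44 minus E14, and at a mean of at least 7 these were 1 and 354. Leaving out each array in turn, the median of the members lay at -1.44 to -1.25 after NSL1, -0.483 to -0.373 after the double knockdown and -0.0435 to 0.035 after MSL1. Members lower after MOF were 9 to 9 in PGK12.1, 2 to 5 in WD44 and 2 to 3 in E14, with 2288 to 3361, 161 to 702 and 55 to 325 probesets, and NSL1 gave 4791 to 6279. Members that differed were 0 to 0, 0 to 1 and 0 to 0, with 37 to 229, 7 to 348 and 4 to 120 probesets. Why calls were lost in the fits without an experiment term and on fewer arrays was not tested. Of the single genes, 934 values held, 134 missed the threshold, 18 newly passed it and 1 reversed.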
